A study of Homo sapiens with 6 samples.

Results

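The imprinted DLK1-DIO3 microRNA cluster lies on the long arm of human chromosome 14 and was followed here in K562 cells, an erythroleukemia line that can be driven towards the erythroid or the megakaryocytic lineage. Its members were all entries of the small RNA count tables whose names belong to a fixed list of microRNAs of the cluster, from miR-770 to miR-656, which gave 90 of the 28846 entries and 90 of the 2596 human microRNAs. Control cells carried the empty lentiviral vector SIEW, which expresses GFP only, and RUNX1 cells carried SIEW RUNX1, which expresses human RUNX1, a transcription factor of blood cell development, together with GFP. Each condition had 3 samples, named here control 1 to 3 and RUNX1 1 to 3, and the comparison asked which small RNAs differ when RUNX1 is overexpressed. Total RNA was taken from the transduced cells after 10 days in culture, and libraries were started from 1000 ng. RUNX1 mRNA is not measured by small RNA counts, so the tables hold no check of the overexpression itself.

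The DLK1-DIO3 region is imprinted: the protein-coding genes DLK1, RTL1 and DIO3 are expressed from the paternal chromosome, and the non-coding RNAs, among them MEG3, MEG8, MEG9 and the microRNAs, from the maternal one. The microRNAs are cut from long maternal transcripts as hairpins, and either strand of a hairpin, the 5p or the 3p arm, can be loaded into the silencing complex, which then finds targets mainly through the seed, bases 2 to 8 of the mature microRNA. The cluster is best known for its activity in the embryo, the placenta, the brain and stem cells, and some of its microRNAs, cut from a transcript antisense to RTL1, act on RTL1 mRNA.

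In the GRCh38 assembly with GENCODE release 29, the members came from 50 hairpins, all on the plus strand of chromosome 14 between DLK1 (chr14:100725705-100738224) and DIO3 (chr14:101561351-101563452). The hairpins formed 2 groups separated by 110852 bases, against at most 26355 bases between other neighbours. The upstream group of 10 hairpins, from MIR770 to MIR370, spanned chr14:100852390-100911213. MIR770 lies inside MEG3, and MIR431, MIR433, MIR127, MIR432 and MIR136, 5 hairpins in all, lie antisense to an exon of RTL1. The downstream group of 40 hairpins, from MIR379 to MIR656, spanned chr14:101022066-101066801. Of these, 11 lie inside MEG8, 6 inside MIR381HG and 6 inside MEG9. The tables identify microRNAs by name only, so these positions come from the annotation and not from the alignments.

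Mature sequences of 89 members were found in RefSeq (GRCh38.p14) and were 19 to 25 nucleotides long; miR-668-3p had no entry. The sequences below are those of the 14 members altered between the conditions, of miR-379-3p, which has the same seed as the altered miR-411-3p, and, added outside that rule, of miR-127-3p, the most abundant member, and miR-493-5p, the other arm of an altered member. Each runs 5′ to 3′, and capitals mark the seed.
miR-409-5p: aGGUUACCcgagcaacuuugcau
miR-409-3p: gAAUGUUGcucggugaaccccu
miR-411-5p: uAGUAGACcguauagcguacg
miR-411-3p: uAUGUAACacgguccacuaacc
miR-379-3p: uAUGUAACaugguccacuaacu
miR-493-5p: uUGUACAUgguaggcuuucauu
miR-493-3p: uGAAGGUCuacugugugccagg
miR-136-5p: aCUCCAUUuguuuugaugaugga
miR-136-3p: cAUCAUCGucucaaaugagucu
miR-410-3p: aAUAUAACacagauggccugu
miR-889-3p: uUAAUAUCggacaaccauugu
miR-432-5p: uCUUGGAGuaggucauugggugg
miR-487b-3p: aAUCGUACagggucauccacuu
miR-337-3p: cUCCUAUAugaugccuuucuuc
miR-654-3p: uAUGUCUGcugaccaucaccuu
miR-299-3p: uAUGUGGGaugguaaaccgcuu
miR-127-3p: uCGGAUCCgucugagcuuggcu
The 5p and 3p arms of a hairpin have different seeds, so a change in the balance of arms exchanges 1 seed for another. Apart from miR-411-3p and miR-379-3p, no altered member had the seed of another member.

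The libraries held 1618248 counts in control 1, the shallowest, to 15245007 counts in RUNX1 1, the deepest. MicroRNAs took 81.4% to 82.1% of the counts in the controls and 89.5% to 91.9% in the RUNX1 samples, and the mean TMM factor, which scales libraries on the bulk of small RNAs, was 1.28 for the controls and 0.786 for the RUNX1 samples. The library names carried a different letter for the controls and for the RUNX1 samples, so what that letter stands for and the vector cannot be told apart. The 5 listed erythroid arms were present in every library. TMM-scaled CPM are counts scaled by the product of the library total and its TMM factor, and not by the total alone. MiR-451a was at 2704 to 3157 TMM-scaled CPM in the controls and 1311 to 1862 CPM in the RUNX1 samples. MiR-144-5p (925 to 1039 against 502 to 903 CPM) and miR-486-5p (686 to 805 against 293 to 678 CPM) were lower in every RUNX1 sample. MiR-144-3p went the other way, at 111 to 136 against 225 to 252 CPM, and miR-486-3p overlapped, at 43.0 to 55.0 against 47.7 to 87.7 CPM. Neuronal miR-124-3p, muscle miR-206 and mesenchymal miR-199a-5p were at 0 in all 6 libraries, while miR-143-3p, a microRNA of smooth muscle and mesenchymal cells, was at 17.2 to 20.1 CPM in the controls and 1865 to 2050 CPM in the RUNX1 samples. Of the 13 listed markers of other cell types, miR-145-5p (51.9 to 58.0 against 81.0 to 106 CPM), miR-1 (0 to 0.124 against 4.64 to 6.13 CPM) and miR-214-3p (0 to 0.124 against 1.44 to 4.38 CPM) were also higher in every RUNX1 sample, and the others were at most 1.13 CPM. Their part in the results below was not tested.

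Of the 90 members, 69 had a count in at least 1 library, 42 had counts in all 6, and 21 were at 0 throughout. A count of 0 allows up to 3 counts, which was 1.43 TMM-scaled CPM in control 1 and 0.260 CPM in RUNX1 1; these limits cover counting error only. The numbers of members with a count were 47, 56 and 58 in controls 1 to 3 and 63, 59 and 55 in RUNX1 1 to 3, so the groups overlapped. These numbers moved with depth: at the total of control 1, the expected numbers were 46.1 ± 1.32 in the controls and 40.6 ± 1.15 in the RUNX1 samples (mean ± SD, n = 3 each), and the groups did not overlap. An equal total keeps the difference in composition between the groups. The same numbers were not computed over all microRNAs, so whether this order is particular to the cluster was not tested.

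Few members carried most of the cluster's counts. MiR-127-3p, whose hairpin lies antisense to RTL1, had 787, 2856 and 3062 counts in the controls and 6187, 2817 and 2185 in the RUNX1 samples. MiR-411-5p had 141, 660 and 623 against 1507, 749 and 818 counts. MiR-381-3p had 124, 423 and 491 against 799, 436 and 375 counts, and miR-654-3p had 91, 308 and 333 against 837, 400 and 330 counts. These 4 members made up 81.5% to 83.4% of the cluster's counts in every library. Mature microRNAs are of nearly equal length, so the counts were compared without length scaling.

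Among the 43 hairpins with both arms listed and found in RefSeq, the 3p arm had more counts over all 6 libraries for 26, the 5p arm for 12, and 5 had no count on either arm. MIR668, whose 3p arm had no RefSeq entry, was not among them and had 5 3p and 0 5p counts. The dominant product was thus the 3p arm for MIR127, MIR381 and MIR654 and the 5p arm for MIR411. MIR376A1 and MIR376A2 were counted under the 5p arm on 12 and 2 counts, with their shared 3p arm at 0 in every library. The sums also pool the conditions. In the controls MIR493 had 138 5p and 184 3p counts, and MIR409 had 154 and 130. In the RUNX1 samples these were 228 and 132, and 80 and 388.

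The cluster's share of all microRNA counts was 0.104%, 0.103% and 0.106% in controls 1 to 3 and 0.0799%, 0.0689% and 0.0642% in RUNX1 1 to 3. The means were 0.104% ± 0.00176 and 0.0710% ± 0.00809 (SD, n = 3 each), and the groups did not overlap. With miR-10a-5p, an abundant microRNA of the HOX clusters, left out of the denominator, the shares were 0.113% ± 0.00273 and 0.102% ± 0.0138 and the groups overlapped. On the TMM scale the cluster summed to 670 ± 37.2 CPM in the controls and 830 ± 155 CPM in the RUNX1 samples, the opposite order, and the groups again overlapped. The direction of the summed level therefore depended on the scale, and no test was made of it.

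**Figure D1:**
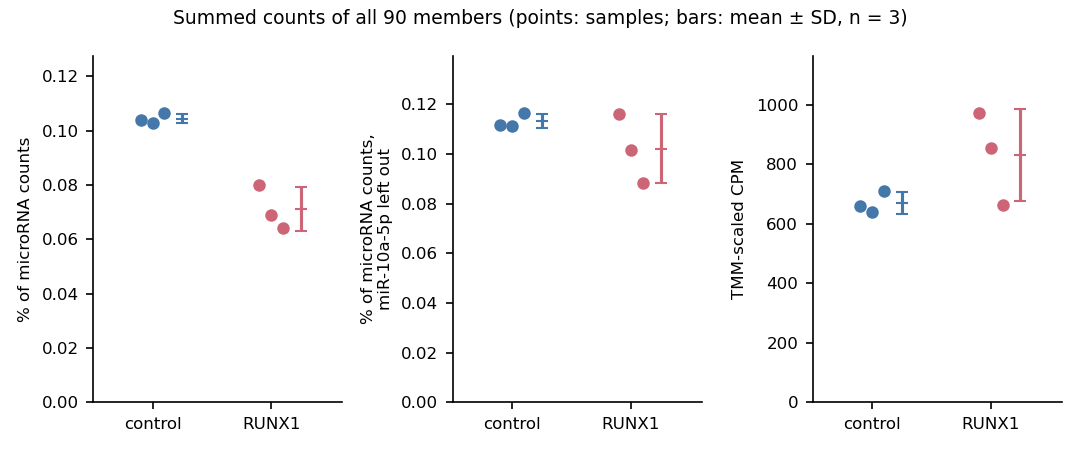
Summed level of all 90 members in each sample (points) with mean ± SD (n = 3 each), as a percentage of all microRNA counts (left), as the same percentage without miR-10a-5p (middle) and in TMM-scaled CPM (right). The groups are apart only in the left panel, and the RUNX1 mean is below the control mean in the left and middle panels and above it in the right panel.

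A member was called altered when its P-value was under 0.05 and its log2 fold change at least 0.5 in size, thresholds taken from the study, in an edgeR quasi-likelihood fit over 947 small RNAs. Of the 26 members with enough counts to be tested, 14 were altered (53.8%), against a background of 57.6% of all small RNAs tested and 56% of the 598 microRNAs tested. Higher in RUNX1 cells were 10 members (38.5%), against 28% of all small RNAs and 33.4% of microRNAs, and lower were 4 (15.4%), against 29.6% and 22.6%. The share altered and the share higher were thus near those of microRNAs, and the share lower was below the background; none of these differences was tested. With Benjamini-Hochberg adjustment over the 947 small RNAs, 9 members remained, 7 higher and 2 lower, which was 34.6% of those tested against 54.6% of all small RNAs. The groups did not overlap in TMM-scaled CPM for 13 members, 50% of those tested, against 64.8% of all small RNAs.

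The median log2 fold change of the 26 members was 0.37, against -0.06 over all small RNAs and 0.11 over microRNAs. Scaled by library size alone, which moved the median of all small RNAs by -0.70, the members' median was -0.34 and that of all small RNAs -0.76, with 2 members altered upward and 9 downward. TMM factors from microRNAs alone moved the median of all small RNAs by -0.19 and gave 4 members higher and 5 lower, and RLE factors gave 11 higher and 2 lower. The share of all small RNAs altered in either direction was 67.7% with library size, 58.9% with microRNA-only TMM factors and 57.6% with RLE factors. Values below are from TMM factors, and each is therefore relative to the bulk of small RNAs.

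**Figure D2:**
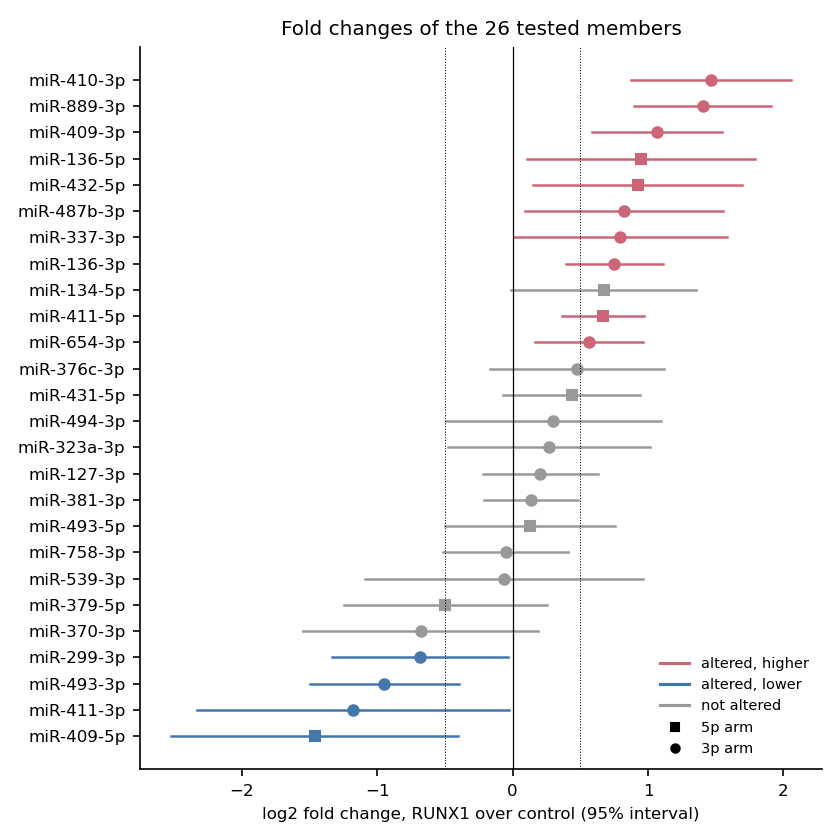
Log2 fold change, RUNX1 over control, of the 26 tested members with 95% intervals from the edgeR fit (n = 3 samples per group); squares are 5p arms, circles 3p arms, colours mark altered members and dotted lines the fold-change threshold. The values run from -1.46 for miR-409-5p to 1.47 for miR-410-3p, so members of the cluster lay on both sides of 0.

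MiR-410-3p and miR-409-3p, cut from hairpins near the downstream end (MIR410 at chr14:101065912-101065991 and MIR409 at chr14:101065300-101065378, both inside MEG9), and miR-889-3p (MIR889, chr14:101047901-101047979, inside MIR381HG) rose most. MiR-410-3p had 9, 32 and 49 counts in the controls and 159, 105 and 77 in the RUNX1 samples, or 4.91 ± 1.35 and 13.9 ± 2.78 CPM. Every RUNX1 sample was above every control on the CPM scale, and the log2 fold change was 1.47 (SE 0.261, adjusted p = 0.00112). MiR-889-3p had 8, 41 and 45 against 171, 93 and 78 counts, or 4.94 ± 1.06 and 13.7 ± 2.0 CPM. Its groups did not overlap either, with a log2 fold change of 1.40 (SE 0.224, adjusted p = 0.000593). MiR-409-3p had 16, 49 and 65 against 198, 101 and 89 counts, and rose from 7.43 ± 1.25 to 15.4 ± 2.18 CPM without overlap, by 1.07 on the log2 scale (SE 0.214, adjusted p = 0.00217). With scaling by library size alone, miR-410-3p and miR-889-3p were still altered upward, at 0.77 and 0.70, while miR-409-3p was not altered, at 0.36.

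MiR-136-3p and miR-411-5p rose with little spread between samples. MiR-136-3p, from a hairpin antisense to RTL1 (MIR136, chr14:100884702-100884783), had 24, 110 and 97 counts in the controls and 239, 139 and 149 in the RUNX1 samples, or 12.6 ± 1.09 and 21.6 ± 0.767 CPM. The groups did not overlap and the log2 fold change was 0.75 (SE 0.158, adjusted p = 0.00292). MiR-411-5p (MIR411, chr14:101023325-101023420, inside MEG8), whose counts stand above, went from 77.1 ± 8.39 to 123 ± 6.42 CPM without overlap, a log2 fold change of 0.67 (SE 0.135, adjusted p = 0.00225). Scaled by library size alone, these were 0.05 and -0.03 and neither was altered.

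MiR-654-3p and 4 members with few counts completed the 10 that were higher. MiR-654-3p, whose counts also stand above, went from 41.8 ± 3.16 to 61.6 ± 12.4 CPM without overlap, a log2 fold change of 0.56 (SE 0.175, adjusted p = 0.0207). It lay below the fold-change threshold without RUNX1 1, at 0.45, and passed neither threshold without control 2, at 0.49. MiR-432-5p, from a hairpin antisense to RTL1, had 5, 11 and 10 counts in the controls and 32, 23 and 15 in the RUNX1 samples, with overlap between the groups on the CPM scale and a log2 fold change of 0.92 (SE 0.343, adjusted p = 0.0433). The call was lost without control 2, control 3 or RUNX1 2, at 0.81, 0.80 and 0.80. Both passed with the adjusted P-value. Neither was altered with microRNA-only TMM factors, at 0.37 for miR-654-3p and 0.73 for miR-432-5p, or with library size alone, at -0.15 and 0.22, and miR-432-5p was not altered with DESeq2, at 0.98.

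The last 3 members that were higher passed on the unadjusted P-value alone. MiR-136-5p, the minor arm of MIR136, had 7, 13 and 10 against 50, 17 and 20 counts, with overlap and a log2 fold change of 0.95 (SE 0.373, adjusted p = 0.0531). Without control 2, control 3 or RUNX1 1 it was 0.82, 0.69 and 0.71 and no longer altered. MiR-487b-3p had 2, 18 and 12 against 43, 18 and 18 counts, without overlap in CPM, and a log2 fold change of 0.82 (SE 0.322, adjusted p = 0.0529). It was not altered without control 1, control 3 or RUNX1 1, at 0.73, 0.75 and 0.65. MiR-337-3p had 1, 10 and 11 against 27, 11 and 15 counts, also without overlap, and a log2 fold change of 0.80 (SE 0.348, adjusted p = 0.0764). It kept the call only when RUNX1 2 was the sample left out: without controls 1 to 3 in turn it was 0.68, 0.82 and 1.02, and without RUNX1 1 or RUNX1 3 it was 0.71 and 0.87, and none of these 5 values passed. None of the 3 members was altered with DESeq2, with microRNA-only TMM factors or with library size alone.

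**Figure D3:**
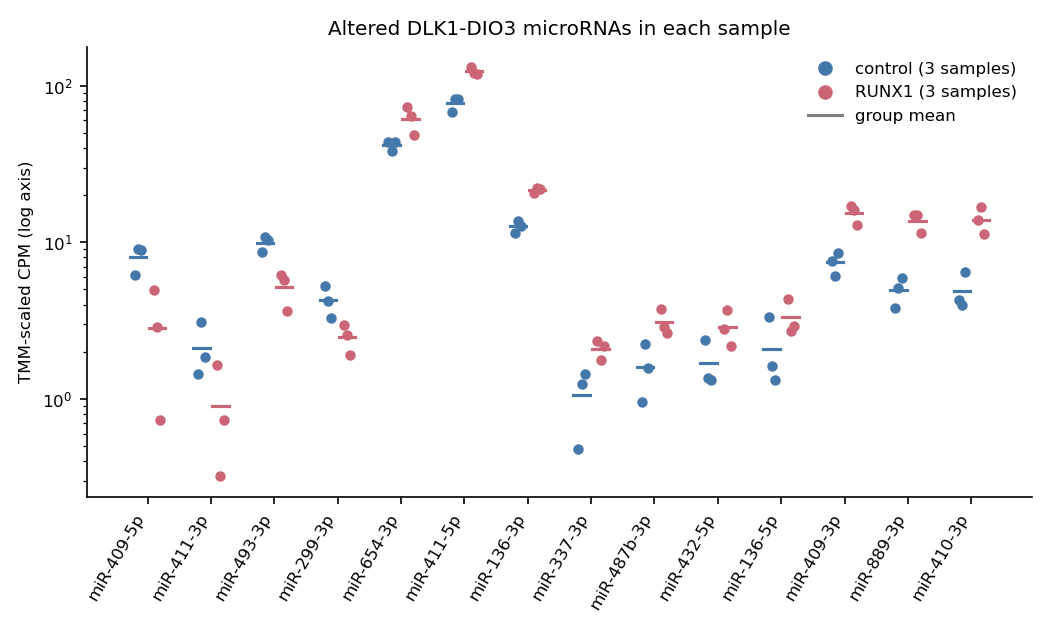
TMM-scaled CPM (log axis) of the 14 altered members in each of the 3 control and 3 RUNX1 samples (points), with group means (lines), ordered by log2 fold change from the lowest on the left. For 11 of the 14 the points of the groups do not overlap; the exceptions are miR-411-3p, miR-432-5p and miR-136-5p.

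Of the 4 members that were lower, 3 were the other arm of a hairpin with a tested partner. MiR-409-5p had 13, 73 and 68 counts in the controls and 57, 18 and 5 in the RUNX1 samples, or 8.07 ± 1.61 and 2.85 ± 2.11 CPM. The groups did not overlap, though RUNX1 3 was well below RUNX1 1, and the log2 fold change was -1.46 (SE 0.469, adjusted p = 0.0236). MiR-409-5p was -0.95 without RUNX1 3 and -2.21 without RUNX1 1, and altered in both cases. MiR-493-3p (MIR493, chr14:100869060-100869148) had 18, 87 and 79 against 71, 36 and 25 counts, and fell from 9.93 ± 1.17 to 5.19 ± 1.35 CPM without overlap, by 0.95 on the log2 scale (SE 0.243, adjusted p = 0.00809).

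MiR-411-3p and miR-299-3p, from neighbouring hairpins inside MEG8, passed on the unadjusted P-value alone. MiR-411-3p had 3, 25 and 14 counts in the controls and 19, 2 and 5 in the RUNX1 samples, with overlap on the CPM scale, and a log2 fold change of -1.18 (SE 0.509, adjusted p = 0.074). It reached the count filter in the controls only. It kept the call only when RUNX1 1 was left out, at -2.06; without controls 1 to 3 it was -1.26, -0.78 and -1.34, and without RUNX1 2 or RUNX1 3 it was -0.79 and -0.92. MiR-299-3p had 11, 34 and 25 against 34, 16 and 13 counts, without overlap, and a log2 fold change of -0.68 (SE 0.287, adjusted p = 0.0673). It was not altered without control 1, control 2, RUNX1 2 or RUNX1 3, at -0.56, -0.66, -0.63 and -0.42. Neither member was altered with DESeq2 or RLE factors. All 4 members that were lower kept a negative fold change under every scaling tried. The scalings could not have turned these signs. Library size and microRNA-only TMM factors moved small RNAs downward, by -0.70 and -0.19, and RLE factors moved them upward by only 0.08.

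Leaving out each sample in turn kept the call for 7 of the 14 altered members, namely miR-410-3p, miR-889-3p, miR-409-3p, miR-136-3p, miR-411-5p, miR-409-5p and miR-493-3p. Of these, 4 (miR-410-3p, miR-889-3p, miR-409-5p and miR-493-3p) were altered in every alternative fit in which they were tested. In bulk RNA, a lower level in each cell and fewer cells that carry a microRNA cannot be told apart.

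The most abundant member was among the 12 that were not altered. MiR-127-3p went from 378 ± 24.4 to 435 ± 110 CPM, with overlap between the groups and a log2 fold change of 0.20 (95% interval -0.22 to 0.63, adjusted p = 0.373); RUNX1 3 was the lowest sample of either group and RUNX1 1 the highest, and the value was 0.47 (adjusted p = 0.000276) without RUNX1 3, still under the fold-change threshold, and 0.06 without RUNX1 1. MiR-381-3p went from 58.8 ± 6.09 to 64.6 ± 8.54 CPM, a log2 fold change of 0.14 (95% interval -0.21 to 0.48), and miR-758-3p, with 12, 43 and 46 against 65, 36 and 35 counts, stood at -0.05 (95% interval -0.51 to 0.41). Scaled by library size alone, these 3 members were altered downward, at -0.51, -0.57 and -0.75, with the median of all small RNAs at -0.76. The intervals reflect the spread between samples and hold changes of up to 0.63 in size.

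MiR-493-5p had 25, 53 and 60 counts in the controls and 120, 63 and 45 in the RUNX1 samples, with a log2 fold change of 0.13 that was negative with library-size or microRNA-only scaling. MiR-431-5p had 14, 37 and 38 against 88, 41 and 46 counts and a log2 fold change of 0.44; it passed without control 1, at 0.57, and without RUNX1 3, at 0.59. MiR-134-5p, a microRNA known from the control of dendritic spines in neurons, did not overlap between the groups and had a log2 fold change of 0.67 with an unadjusted p of 0.0523 in the edgeR fit; without RUNX1 3 it passed, at 0.95. Near the threshold, leaving out a single sample could thus change the call for both. With all samples kept, miR-134-5p also passed with RLE factors, at 0.76, and without the count filter, at 0.75. The other members with positive values were miR-376c-3p at 0.48, miR-494-3p at 0.30 and miR-323a-3p at 0.27, all 3 negative with scaling by library size alone. MiR-539-3p stood at -0.06, miR-379-5p at -0.50 and miR-370-3p at -0.68. MiR-370-3p passed without RUNX1 1, at -1.16, with scaling by library size alone, at -1.40, and with microRNA-only TMM factors, at -0.88, and miR-379-5p passed with library size alone, at -1.19.

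Arms of the same hairpin are cut from 1 precursor, and their ratio within a library needs no scaling between libraries. Both arms were tested for 4 hairpins. For miR-409 the log2 ratio of 3p to 5p counts was 0.29, -0.57 and -0.06 in the controls and 1.79, 2.46 and 4.02 in the RUNX1 samples. The arms were thus near balance in the controls, and the 3p arm led in every RUNX1 sample, with a mean difference of 2.87, or 7.32-fold. For miR-411 the ratio was -5.34, -4.69 and -5.43 in the controls and -6.27, -8.23 and -7.22 in the RUNX1 samples, a difference of -2.09, or 4.25-fold further towards the 5p arm. For miR-493 it was -0.46, 0.71 and 0.39 against -0.75, -0.80 and -0.84, a difference of -1.01, or 2.01-fold towards the 5p arm. The groups did not overlap in any of these 3 hairpins. The miR-411 ratios rest on few 3p counts, 3, 25 and 14 in the controls and 19, 2 and 5 in the RUNX1 samples. MiR-411-3p reached the count filter in the controls only, so its place among the tested arms depended on the group where it was higher. For miR-136 the ratio was 1.71, 3.03 and 3.22 against 2.25, 2.99 and 2.87, with overlap and a difference of 0.05 whose sign turned to -0.42, -0.10 and -0.03 without control 1, RUNX1 2 and RUNX1 3.

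The exact two-sided permutation test over samples gave p = 0.1 for miR-409, miR-411 and miR-493, the smallest that 3 against 3 samples allow, and p = 1 for miR-136, or 0.133 and 1 with Benjamini-Hochberg adjustment over the 4 hairpins. Groups that do not overlap were common in this measure: the background was 54.9% of 144 precursors with both arms tested. The median size of the difference was 1.55 over the 4 hairpins and 0.605 over the 144 precursors. The 4 include miR-411, whose 3p arm was tested only through the group where it was higher. The larger median therefore cannot be read as a trait of the cluster. Without RUNX1 3 the miR-409 difference was 2.24, and without RUNX1 2 the miR-411 difference was -1.59.

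Along the chromosome, altered members of both directions occurred in both groups of hairpins. In the upstream group 9 of 18 members were tested, of which 4 were higher and 1 lower, with a median log2 fold change of 0.44. The 5 hairpins antisense to RTL1 had 10 members, all with counts, of which 5 were tested: miR-432-5p, miR-136-5p and miR-136-3p were altered upward, miR-127-3p and miR-431-5p were not altered, and none was lower. In the downstream group 17 of 72 members were tested, with 6 higher, 3 lower and a median of 0.30. Across the 26 tested members, distance from the first hairpin and log2 fold change had a Pearson's r of 0.0093 and a Spearman's rho of 0.22. Among the 18 tested 3p arms alone these were 0.29 and 0.54. These values are descriptions, since the members share libraries and transcripts.

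**Figure D4:**
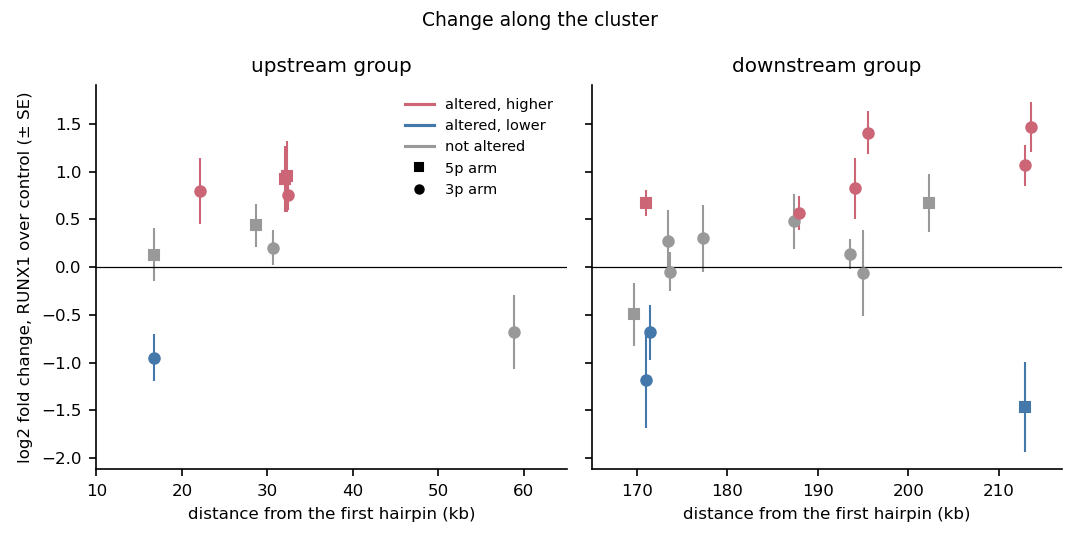
Log2 fold change, RUNX1 over control, with its SE for the 26 tested members against the distance of their hairpin from the first hairpin of the cluster (kb), with the upstream group on the left and the downstream group on the right; squares are 5p arms and circles 3p arms. Values on both sides of 0 occur in both groups, and miR-409-3p, miR-409-5p and miR-410-3p lie at the right end.

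By arm, 3 of 8 tested 5p members were higher and 1 lower, with a median of 0.55, and 7 of 18 tested 3p members were higher and 3 lower, with a median of 0.29. Over all tested microRNAs, 86 of 237 5p arms were higher and 50 lower, with a median of 0.15, and 83 of 245 3p arms were higher and 47 lower, with a median of 0.14. By abundance, of the 4 members with 1000 or more counts 2 were higher, and of the 22 with fewer counts 8 were higher and 4 lower.

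The makeup of the cluster, like the arm ratio, does not depend on scaling between libraries. MiR-127-3p took 57.1%, 55.4% and 56.7% of the cluster's counts in the controls and 55.3%, 52.6% and 48.0% in the RUNX1 samples, without overlap. MiR-411-5p took 11.5% ± 1.29 and 15.1% ± 2.47, and miR-654-3p 6.25% ± 0.319 and 7.40% ± 0.127, both without overlap, while miR-381-3p, at 8.76% ± 0.482 and 7.84% ± 0.614, overlapped. Of the 26 tested members, 7 had a higher share in every RUNX1 sample than in any control, 8 a lower one, and 11 overlapped. The groups were thus apart for 57.7% of the members; the nearest background, shares of all microRNA counts over the 598 tested microRNAs, was 73.4%. Shares add up to a whole, so a lower share does not by itself show a lower level. The upstream group held 63.6% ± 1.12 of the cluster's counts in the controls and 58.9% ± 3.13 in the RUNX1 samples, and the downstream group the rest, without overlap.

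A further 43 members had counts but too few for the fit, 17 of them with at most 9 counts in all and 26 with 10 to 51. Fitted without the count filter, 4 of these 26 (15.4%) passed the thresholds, all of them higher in the RUNX1 samples. The background in that fit was 24.7% of small RNAs in either direction and 12.4% for those higher. MiR-656-3p, from the last hairpin of the cluster, had 0, 0 and 1 counts in the controls and 9, 4 and 4 in the RUNX1 samples. MiR-369-3p had 0, 8 and 4 against 22, 8 and 9 counts, and miR-369-5p had 0, 8 and 3 against 14, 10 and 14. MIR369 and MIR656 are among the 6 hairpins inside MEG9 at the downstream end. Of the other 4, MIR410 and MIR409 gave miR-410-3p and miR-409-3p, which were higher, and miR-409-5p, which was lower, and both arms of MIR541 and MIR412 were at 0 in every library. MiR-433-3p, from a hairpin antisense to RTL1, had 0, 3 and 1 against 16, 5 and 3 counts. Control 1, the shallowest library, held none of the 4, and controls 2 and 3 held at most 8 counts of each, so no fold change is given.

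MiR-323b-3p and miR-382-5p also lay higher in every RUNX1 sample on the CPM scale, without passing. MiR-323b-3p had 1, 7 and 4 against 19, 9 and 7 counts, and miR-382-5p had 1, 7 and 5 against 13, 7 and 6. MiR-543 lay lower in every RUNX1 sample, with 1, 6 and 6 against 5, 2 and 2 counts, and did not pass. The other 19 of the 26 overlapped between the groups. Without overlap were thus 6 members that were higher and 1 that was lower. The share without overlap among small RNAs with so few counts was not computed. Among all tested small RNAs, which have more counts, it was 64.8%. In the upstream group, miR-337-5p had 1, 1 and 9 against 20, 5 and 3 counts, miR-431-3p 2, 3 and 7 against 8, 6 and 5, and miR-127-5p, the minor arm of the most abundant hairpin, 3, 11 and 3 against 11, 9 and 7.

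In the first part of the downstream group, miR-379-3p, which has the seed of miR-411-3p, had 1, 12 and 10 counts in the controls and 10, 3 and 5 in the RUNX1 samples. MiR-299-5p had 2, 4 and 11 against 7, 2 and 2 counts, and miR-380-3p had 2, 4 and 4 against 11, 6 and 4. All 3 overlapped between the groups, as did the members that follow. MiR-495-3p had 3, 4 and 6 against 6, 3 and 2 counts, and miR-654-5p, the minor arm of MIR654, had 2, 2 and 5 against 8, 2 and 4. MiR-376b-3p had 4, 3 and 2 against 0, 2 and 3 counts, and miR-376a-5p had 0, 2 and 5 against 2, 1 and 2. The miR-376 family is known for adenosine-to-inosine editing. MiR-1185-1-3p had 0, 4 and 8 against 8, 5 and 4 counts.

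In the remainder of the downstream group, miR-655-3p had 2, 3 and 7 counts in the controls and 10, 2 and 2 in the RUNX1 samples, and miR-487a-3p had 1, 7 and 2 against 4, 4 and 2. MiR-382-3p had 2, 3 and 2 against 9, 4 and 1 counts. The arms of MIR485 were alike in size, with 1, 6 and 9 against 5, 3 and 4 counts for miR-485-5p and 1, 2 and 8 against 2, 3 and 2 for miR-485-3p. MiR-154-5p had 1, 0 and 2 against 4, 2 and 1 counts, miR-377-5p had 0, 3 and 3 against 4, 5 and 4, and miR-377-3p had 2, 1 and 2 against 3, 3 and 0. Fitted without the count filter, the log2 fold changes of these members had SEs from 0.678 for miR-485-5p to 1.13 for miR-154-5p. Sizeable differences could thus go undetected, and the smallest detectable one was not computed.

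Members whose sequence has several sources were among those without counts. MiR-376a-3p, miR-329-3p, miR-329-5p and miR-1185-5p each match 2 hairpins of the cluster, and 4 of these 4 were at 0 in every library, against 17 of the 85 members with 1 hairpin (20%). Over all microRNAs found in RefSeq, 91 of 134 with 2 or more hairpins (67.9%) and 803 of 2128 with 1 hairpin (37.7%) were at 0. How reads with several matches were handled is not given in the sources used here, and its part in these zeros was not tested. MiR-411-3p and miR-379-3p differ at 2 of 22 positions, so the division of reads between them is uncertain and was not tested.

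Other RNAs of the region were low. The 5 microRNAs of the region outside the fixed list had 39 counts in all and none was tested. Of 41 C/D box snoRNAs of the SNORD113 and SNORD114 families and SNORD112, 20 had counts and 1 was tested, SNORD113-9, with 5, 11 and 2 counts in the controls and 27, 6 and 6 in the RUNX1 samples and a log2 fold change of 0.52 (SE 0.653, adjusted p = 0.513). An entry named MEG8, chosen after its values were seen, had 17, 72 and 93 counts in the controls and 75, 29 and 19 in the RUNX1 samples. It was lower in every RUNX1 sample, with a log2 fold change of -1.07 (SE 0.314, adjusted p = 0.0161), while miR-411-5p from inside the MEG8 gene was higher and miR-411-3p and miR-299-3p lower. Short reads from a long RNA are fragments of it and do not give its level.

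MicroRNAs of the same chromosome arm outside the imprinted region were measured beside the cluster. Of 8 entries 4 were tested and 3 were higher, against 28% of all small RNAs tested. MiR-342-3p, from an intron of EVL, had 665, 2963 and 2835 counts in the controls and 12955, 6525 and 4845 in the RUNX1 samples, a log2 fold change of 1.44 (SE 0.185, adjusted p = 0.000166), close to those of miR-410-3p and miR-889-3p. MiR-342-5p was at 0.90 (adjusted p = 0.00378), and miR-345-5p, at 0.08, was not altered. MiR-151b, at 0.56, passed on the unadjusted P-value alone (adjusted p = 0.0775). The other large imprinted microRNA cluster, on chromosome 19, is a placental cluster expressed from the paternal chromosome. Of its 62 entries 32 had counts and 9 were tested, and 1 of the 9, miR-520a-3p, was altered, at -0.96 (SE 0.377, adjusted p = 0.0539). Of the 26 tested members of the DLK1-DIO3 cluster 14 were altered (53.8%), which was near the background of 57.6% of all small RNAs tested. The chromosome 19 entries had 1550 counts in all, so the depth behind this contrast was lower, and the difference between the clusters was not tested.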

How the data were processed

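Small RNA libraries of transduced K562 cells were made by the authors with the TruSeq Small RNA kit and sequenced as single reads, and counts per small RNA were produced on the OASIS platform with standard parameters. The submitters' processing notes name hg19 and CASAVA 1.8.2; the aligner and the handling of reads with several matches are not given in the sources used here. The deposited values are raw counts per named small RNA, 1 table per sample. Groups followed the labels, and the study states that the transductions were independent. The members and lists were chosen with earlier results of these data known.

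Small RNAs passing filterByExpr (minimum count 10, minimum total count 15) were fitted with edgeR 4.0.16 (glmQLFit and glmQLFTest, TMM factors, condition only, R 4.3.3) over all 6 samples, after a check on simulated data. Members with P under 0.05 and log2 fold changes of 0.5 or more in either direction were called altered; adjusted p-values are Benjamini-Hochberg values over the 947 small RNAs tested. CPM are TMM-scaled and were not used in tests. Every tested member is given with its fold change, and counts are given for the 12 most abundant tested members, the altered ones and untested ones with at least 10 counts. Arm ratios had 0.5 added to each count and exact permutation tests (scipy 1.17.1). Positions and mature sequences came from GENCODE release 29 and RefSeq. Alternatives were DESeq2 1.42.0, other scalings, filters and thresholds, a replicate block, omission of piRNA entries and leaving out each sample. Totals per sample were 1618248 to 15245007 counts, and the biological coefficient of variation was 0.181. Replicates differed by more than sampling noise (chi-square per degree of freedom 9.62 to 451).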

Additional observations from a re-analysis of the deposited data

How the results depend on the processing

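With other settings, the 14 altered members (10 higher, 4 lower) became 8 with DESeq2 (6 and 2), 9 with TMM factors from microRNAs only (4 higher), 6 with at least 10 counts in every sample (4 and 2, of 11 tested), 9 by the adjusted P-value (2 lower) and 5 with a log2 fold change of at least 1 (3 and 2). Scaling by library size alone gave 2 higher and 9 lower, and RLE factors gave 2 lower. Leaving out 1 sample gave 8 to 13 altered members, 6 to 11 higher and 2 to 5 lower: 11, 8 and 9 without controls 1 to 3, and 11, 11 and 13 without RUNX1 1 to 3. The fit without a count filter, with 69 members, altered 17, of which 12 were among the 14; leaving out piRNA entries altered the same 14. With the replicate number as a block, 11 members were altered, 6 of them higher, and 10 were among the 14. Over all small RNAs the share altered was 51.8% to 63.2% with 1 sample left out and 24.7% without a count filter. It was 58.6% without piRNA entries and 57.7% with the block. In their deviations from group means, same-numbered samples had correlations of -0.03, -0.09 and 0.02, and other combinations -0.03 to 0.09. With so few samples per group these deviations constrain one another, so the correlations cannot decide whether same-numbered samples were paired.

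The log2 ratio of the cluster's share of microRNA counts, -0.56, was -0.41 over all counts, -0.16 without miR-10a-5p and -0.43 without miR-127-3p, and -0.65 to -0.49 with 1 sample left out. The mean numbers of members detected, 53.7 and 59, were 39.3 and 45.7 at a minimum of 3 counts and 46.1 and 40.6 at the smallest total, and 51.5 to 57 and 57 to 61 with 1 sample left out.

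Directions turned as follows. Library size alone gave -0.59 for miR-493-5p, -0.27 for miR-431-5p, -0.51 for miR-127-3p, -0.0301 for miR-411-5p, -0.44 for miR-323a-3p, -0.42 for miR-494-3p, -0.22 for miR-376c-3p, -0.15 for miR-654-3p, -0.57 for miR-381-3p and -0.0409 for miR-134-5p, and moved all small RNAs by -0.70. MicroRNA-only TMM gave -0.0670 for miR-493-5p and -0.0554 for miR-381-3p. MiR-493-5p ran from -0.0726 to 0.454 with 1 sample left out, below 0 without control 2. MiR-758-3p was 0.0308 with DESeq2, 0.0311 with RLE and 0.0251 with no filter, and -0.116 to 0.0887 with 1 sample left out, above 0 without control 3 or RUNX1 3. MiR-539-3p was 0.0865 with DESeq2, 0.0107 with RLE, 0.00816 without a filter, 0.152 with the block and -0.408 to 0.348 with 1 sample left out, above 0 without control 3 or RUNX1 1. The miR-136 arm difference ran from -0.422 to 0.332 with 1 sample left out, below 0 without control 1, RUNX1 2 or RUNX1 3. Apart from the shift by scaling, the cause of these changes was not tested. Depth limits the members under about 10 counts a library, most of all in control 1.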
